A study of Mus musculus with 3 samples.

Results

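Cytoplasmic ribosomal protein genes were taken from the deposited count table as every symbol made of Rpl or Rps, a number and at most one letter (a, l or x), together with Rplp0, Rplp1, Rplp2 and Rpsa, and without symbols that hold -ps, the mark of a pseudogene. The rule used names only and found 83 genes among 46095 symbols, 51 of the large (60S) and 32 of the small (40S) subunit. By the RefSeq annotation of GRCm38, 81 of them are protein coding, while Rpl6l is annotated as a pseudogene and Rps4l as a transcribed pseudogene. The gene set is nearly the complete list of core ribosomal proteins, except that a few, such as Rps3a1, Fau and Rpl36al, carry other names and were kept apart.

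RNA was sequenced from prostate tumor tissue of TRAMP mice, which express SV40 viral oncoproteins in the prostatic epithelium from a rat probasin promoter, at 37 weeks of age. The tested libraries are Phf8-KO1 and Phf8-KO2, from male TRAMP mice labeled as knockouts of Phf8, an X-linked gene for a histone demethylase, obtained by crossing Phf8 knockout females with TRAMP males. The control library, TRAMP, came from TRAMP mice with wild-type Phf8. For each library the RNA of 3 mice was pooled. No source used here states that Phf8-KO1 and Phf8-KO2 came from separate animals, so p-values measure only the spread between these libraries. The libraries held 26747443 counts in Phf8-KO1, 31876182 in Phf8-KO2 and 29954020 in TRAMP.

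Levels are given as CPM, a gene's counts scaled to a common library size after TMM normalization, and paired values for the Phf8-KO pools are those of Phf8-KO1 and Phf8-KO2, in this order. Phf8 itself had 14.97 and 15.9 CPM in these pools, against 19.4 CPM in TRAMP, a log2 fold change of -0.33 (SE 0.25, adjusted p = 0.44, edgeR). The part of the gene that the knockout allele lacks is not stated, so this level does not check the genotype, and the pools are named here by their labels. Luminal prostate markers, among them Krt8, Krt18, Epcam and Foxa1, summed to 6473 and 6009 CPM in the Phf8-KO pools, against 5632 CPM in TRAMP, with none of the 10 at 0. Markers of other cells were unequal. The 12 skeletal muscle markers summed to 105 and 12.7 CPM in the Phf8-KO pools, against 1956 CPM in TRAMP, and the 8 adipocyte markers to 20.8 and 30.8 CPM, against 695 CPM. The 8 smooth muscle markers summed to 5101 and 384 CPM in the Phf8-KO pools, against 685 CPM in TRAMP.

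Each ribosome carries 1 copy of nearly every ribosomal protein, and the proteins are made at matched rates from many genes scattered over the genome. Their mRNAs are short, abundant and mostly begin with a 5' terminal oligopyrimidine (TOP) tract, a C followed by a run of C and T, through which the mTOR pathway and the protein Larp1 control their translation. In mammals most of these genes also have processed pseudogenes, intronless copies of the mRNA elsewhere in the genome. In tumors the amount of ribosomal protein mRNA is often read as a measure of growth capacity, and a few of the proteins restrain Mdm2 and so act on p53.

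The TOP tract was looked for at the annotated starts in the RefSeq promoter table of GRCm38.p6, which held 61 of the 83 genes. A C at the annotated first base followed by at least 4 pyrimidines was present in 14 of these 61 (23.0%), against 3.01% of the 27025 genes in the table. Allowing the tract to begin within 10 bases either side of the annotated start raised this to 38 of 61 (62.3%), against 32.6% of all genes. The shares were close in the subunits, 8 of 38 large and 6 of 23 small subunit genes at the exact start. The following windows show 15 bases before and 15 bases from the annotated start, with the tract in capitals, for genes whose values are described below, from Rps18, with one of the lowest fold changes, to Rplp2, with one of the highest.
Rps18 (17:33955651-33955680, minus strand, tract at the start): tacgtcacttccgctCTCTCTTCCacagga
Rps6 (4:86857353-86857382, minus strand, tract at the start): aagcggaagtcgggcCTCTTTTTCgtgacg
Rpl38 (11:114668565-114668594, plus strand, tract at the start): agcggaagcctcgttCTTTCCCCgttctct
Rpl28 (7:4792950-4792979, plus strand, tract at the start): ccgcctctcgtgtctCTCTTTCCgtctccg
Rplp2 (7:141447636-141447665, plus strand, tract at the start): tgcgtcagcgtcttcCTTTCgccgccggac
Rps7 (12:28635939-28635968, minus strand, tract 7 bases downstream): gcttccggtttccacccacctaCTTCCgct
Rps4x (X:102189377-102189406, minus strand, no tract in the range searched): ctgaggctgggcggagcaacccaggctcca
Genes with and without the tract had close medians. The tested genes with it at the exact start had a median log2 fold change of -0.58 (13 genes, from -1.08 for Rps18 to 0.97 for Rplp2) and those without it -0.54 (45 genes). A window without the tract says only that these letters are not at the annotated start.

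Levels were compared between genes as CPM per kb of a representative transcript. Across the 3 libraries the 83 genes had a median of 517 CPM per kb and quartiles of 49.1 and 1059, a range far wider than the equal numbers of the proteins. Rpl41, which encodes the shortest ribosomal protein, was highest with 4747 CPM per kb in Phf8-KO1 and 3767 in Phf8-KO2, against 5394 in TRAMP. Rplp1, a protein of the acidic stalk that recruits elongation factors, had 3578 and 2401 CPM per kb in the Phf8-KO pools, against 3486 in TRAMP. Rps15 followed with 2954 and 2233 CPM per kb in the Phf8-KO pools, against 3008 in TRAMP. Rplp0, the base of the same stalk, had 2236 and 1518 CPM per kb, against 2871 in TRAMP. Rpl26 and Rps14, a gene lost in the human 5q- syndrome, completed the first 6, with means over the 3 libraries of 2144 and 2117 CPM per kb. The order of Rplp0, Rpl26 and Rps14 is not resolved, since their means differ by less than the gap between the Phf8-KO pools. The order of the genes was much the same in every library, with a Pearson correlation of log2 CPM per kb across genes of 0.998 between Phf8-KO1 and Phf8-KO2 (78 genes) and of 0.989 and 0.982 between TRAMP and these pools (79 and 78 genes). Genes are not independent replicates, and each pair of libraries shares the transcript lengths.

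**Figure D1:**
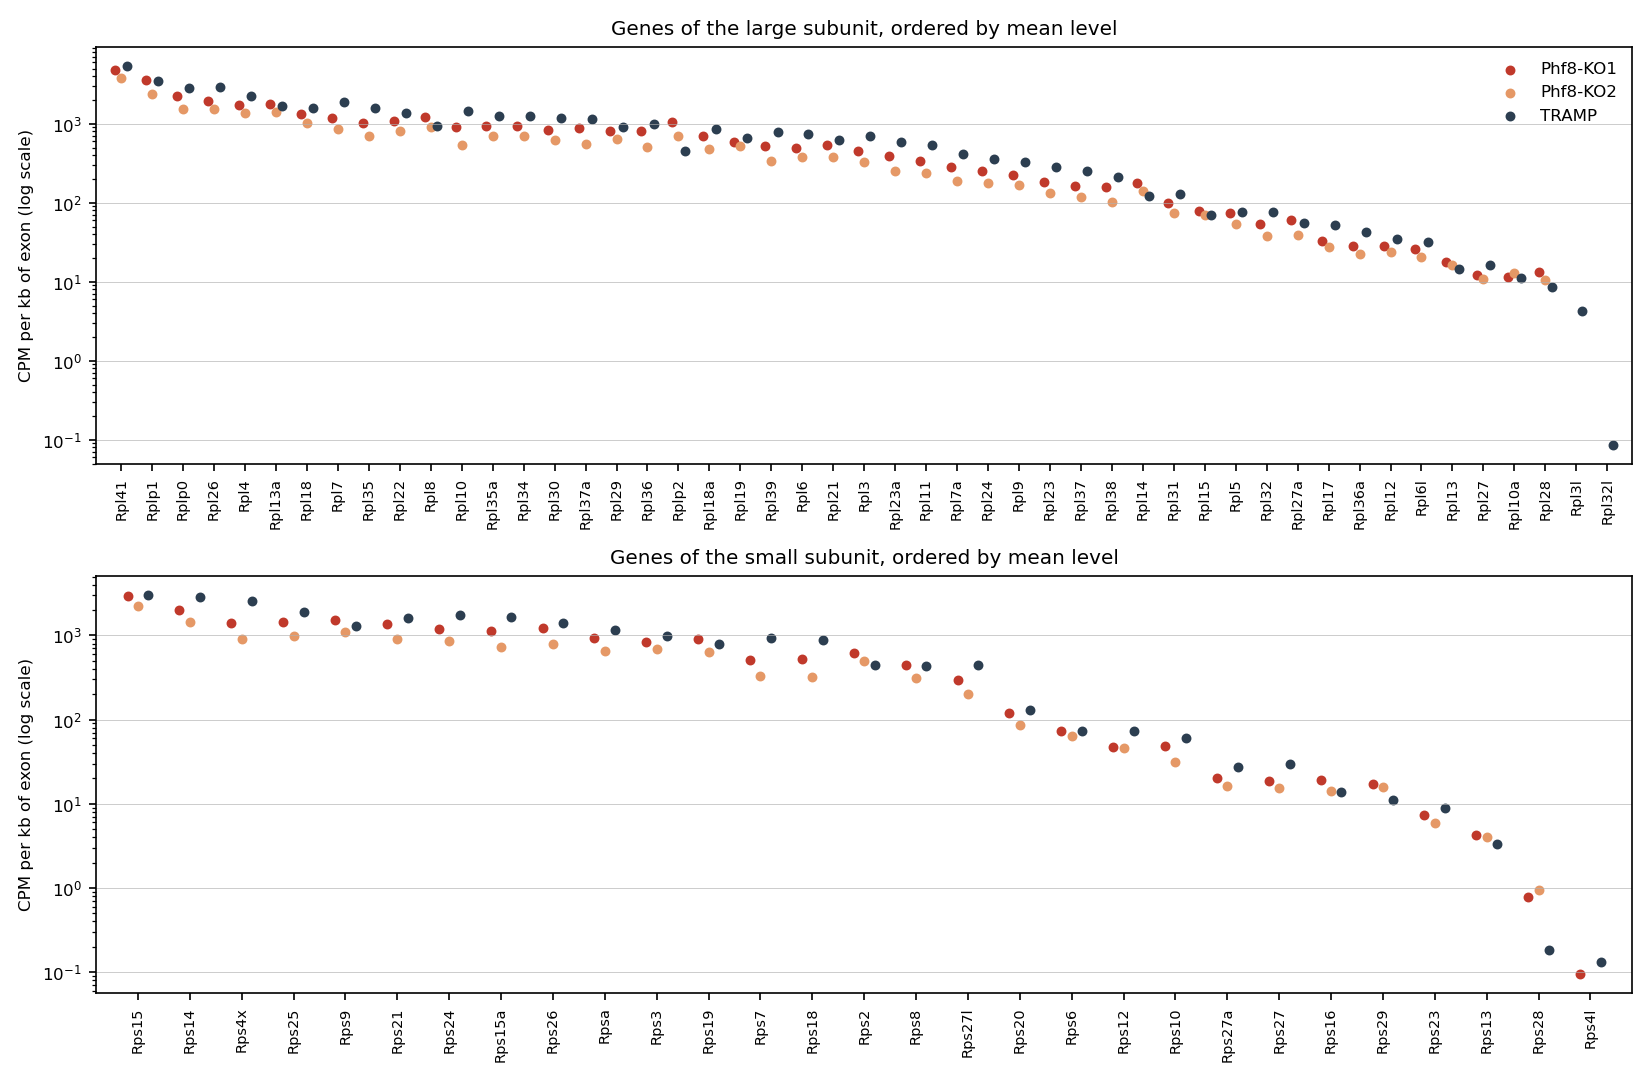
CPM per kb of exon on a log axis for each ribosomal protein gene, ordered by mean level, with large subunit genes above and small subunit genes below. One point is one library (Phf8-KO1, Phf8-KO2, TRAMP), libraries with 0 counts have no point, and a few genes are not drawn, among them Rpl10l and Rpl39l, which are at 0 in all 3. Most genes have the TRAMP point on top and the Phf8-KO2 point lowest.

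At the low end stood the restricted paralogs and several core genes. Rpl10l and Rpl39l, paralogs of Rpl10 and Rpl39 known from the testis, had 0 counts in all 3 libraries, which allows up to 0.113, 0.0905 and 0.104 CPM in Phf8-KO1, Phf8-KO2 and TRAMP (3 counts per library, counting error only). Rpl32l had 0 and 0 counts in the Phf8-KO pools and 1 count in TRAMP, and Rps4l, an autosomal relative of Rps4x, had 2 and 0 counts, against 3 counts in TRAMP. These 4 genes were not tested, and the other 79 passed the filter on low counts. Rps27l, a p53-responsive paralog, had 148 and 101 CPM in the Phf8-KO pools, against 221 CPM in TRAMP, and its counterpart Rps27 had 6.38 and 5.28 CPM, against 10.1 CPM. Per kb of transcript the means over the libraries were 313 CPM for Rps27l and 21.02 CPM for Rps27. Pseudogenes named after Rps27 held 61.8% of the counts of gene and pseudogenes together, so this comparison of levels is uncertain. The low core genes, such as Rps28, Rps13, Rps23, Rpl28 and Rpl10a at 0.638 to 11.9 CPM per kb, encode proteins every ribosome holds. Rps28 has no pseudogene named after it, and pseudogene counts for Rps13 and Rpl10a are given below. Pseudogenes named after Rps23 and Rpl28 held 97.9% and 82.5% of the counts of gene and pseudogenes together.

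Many of the mRNAs match annotated pseudogenes exactly over whole stretches. In windows of 100 bases along the representative transcripts, 71 of the 83 genes shared at least 1 exact window, on either strand, with an annotated pseudogene in GENCODE M21, and the median gene shared 36.8% of its windows. Rpl10a shared the most (87.1%), followed by Rps6 (83.6%), while Rpl41, Rplp2, Rps3, Rps21 and Rpl22 were among those that shared none. The median level was 263 CPM per kb in the 29 tested genes that shared over 50% of their windows, 880 in the 41 that shared some but no more than this, and 835 in the 9 that shared none. Counting windows shared with any other annotated gene, Rps27 had 98.4% and Rps27l 0%. How reads that fit several places were handled is not stated.

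Pseudogenes of ribosomal proteins are named by 301 symbols of the counted set, and 158 of them had counts. Matching pseudogenes with other names, such as Gm10443 for Rps28, are in neither these counts nor the sums below. The named pseudogenes held 152892 counts in Phf8-KO1 and 136845 in Phf8-KO2, against 211645 in TRAMP, or 11.3%, 11.2% and 11.5% of the counts of genes and pseudogenes together. For 14 of 62 genes that have such symbols, the pseudogenes held more counts than the gene, and in 5 (Rpl10a, Rpl17, Rps10, Rps13 and Rps23) they held over 90% of the total. Rpl10a, a protein of the L1 stalk, had 223 and 313 counts in the Phf8-KO pools, against 236 in TRAMP, while Rpl10a-ps1 had 8743 and 7139 counts, against 9961 in TRAMP. Rps13 had 66 and 78 counts, against 56 in TRAMP, while Rps13-ps1 had 4582 and 4194 counts, against 4538. Of 13 such pairs that could be aligned, 7 had no differing base, and the lowest identity was 99.0% (Rps10 and Rps10-ps2). Stretches of 60 coding bases are shown for a pair with no differing base and for the pair with the most. Rpl10a, on chromosome 17, and Rpl10a-ps1, on chromosome 1, do not differ in 648 aligned bases. Rps10, on chromosome 17, and Rps10-ps2, on chromosome 16, differ at 5 of 496, and 4 of these, in capitals, fall in the stretch shown.
Rpl10a: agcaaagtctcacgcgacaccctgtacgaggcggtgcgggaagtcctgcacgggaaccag
Rpl10a-ps1: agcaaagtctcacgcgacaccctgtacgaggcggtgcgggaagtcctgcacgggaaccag
Rps10: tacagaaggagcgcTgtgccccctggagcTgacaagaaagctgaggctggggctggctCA
Rps10-ps2: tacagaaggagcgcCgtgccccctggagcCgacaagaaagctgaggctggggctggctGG
The level of a single gene with a near-identical copy is uncertain. Summed with their pseudogenes, the 79 families had a median log2 ratio of -0.53, 61 of them lower and 7 of them higher in Phf8-KO1 as well as in Phf8-KO2, and 4 had the opposite sign from the gene alone. The summed Rps13 family had 189 and 140 CPM in the Phf8-KO pools, against 172 CPM in TRAMP. The Rpl10a family had 336 and 225 CPM, against 353 CPM.

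**Figure D2:**
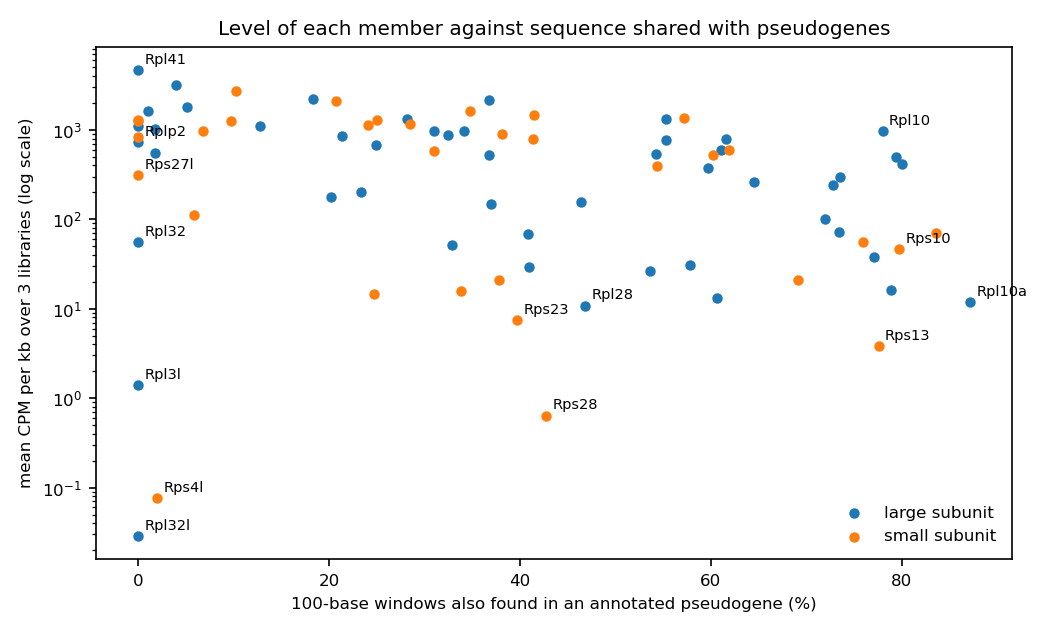
Mean CPM per kb over the 3 libraries (log axis) against the percentage of 100-base windows of each transcript that also occur in an annotated pseudogene, for 81 genes with counts. Rpl10a and Rps13 lie at the right with low levels, and Rpl41, with no shared window, is highest.

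Ribosomal protein mRNA took a smaller part of each Phf8-KO library than of the TRAMP library. The 83 genes held 4.50% of counts in Phf8-KO1 (exact 95% binomial interval 4.50 to 4.51) and 3.39% in Phf8-KO2 (3.38 to 3.40), against 5.43% in TRAMP (5.42 to 5.44). In TMM-scaled units the sums were 45198 and 32597 CPM in the Phf8-KO pools, against 56279 CPM in TRAMP. The difference of the mean log2 sums was -0.55, with an SD of 0.33 between the Phf8-KO pools (n = 2), which differed from each other by 0.47. An exact two-sided permutation test over the 3 libraries gave p = 0.67, and the smallest p that 1 library against 2 allows is 0.33. In bulk tissue, fewer cells that make much of this mRNA and less of it per cell cannot be told apart. Markers of several other cell types had the same order of the libraries in their sums. Macrophage markers summed to 321 and 130 CPM in the Phf8-KO pools, against 701 CPM in TRAMP (6 of 6 lower in both pools), neuroendocrine markers to 43.9 and 25.7 CPM, against 163 CPM (8 of 10), and B cell and plasma cell markers to 56.3 and 14.1 CPM, against 335 CPM (6 of 6). Erythroid markers summed to 98.4 and 67.9 CPM, against 394 CPM (5 of 5), and T cell markers to 14.9 and 8.06 CPM, against 38.6 CPM (6 of 6 tested). Proliferation markers, at 1599 and 1480 CPM, against 986 CPM (8 of 8 higher), and seminal vesicle markers, at 1435 and 2101 CPM, against 116 CPM (7 of 7 higher), lay the other way. The part of these lists, and of those given above, in the difference of the ribosomal protein sums was not tested.

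The subunits were set side by side. The large subunit summed to 26596 and 19489 CPM in the Phf8-KO pools, against 33130 CPM in TRAMP, and the small subunit to 18602 and 13109 CPM, against 23149 CPM. The ratio of small to large was 0.699 and 0.673 in the Phf8-KO pools, against 0.699 in TRAMP. The change in its log2 value was -0.027, with an SD of 0.040 between the Phf8-KO pools (exact permutation p = 1.0, smallest possible 0.33). The highest library exceeded the lowest by 1.73-fold in total ribosomal protein mRNA and by 1.04-fold in the subunit ratio.

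**Figure D3:**
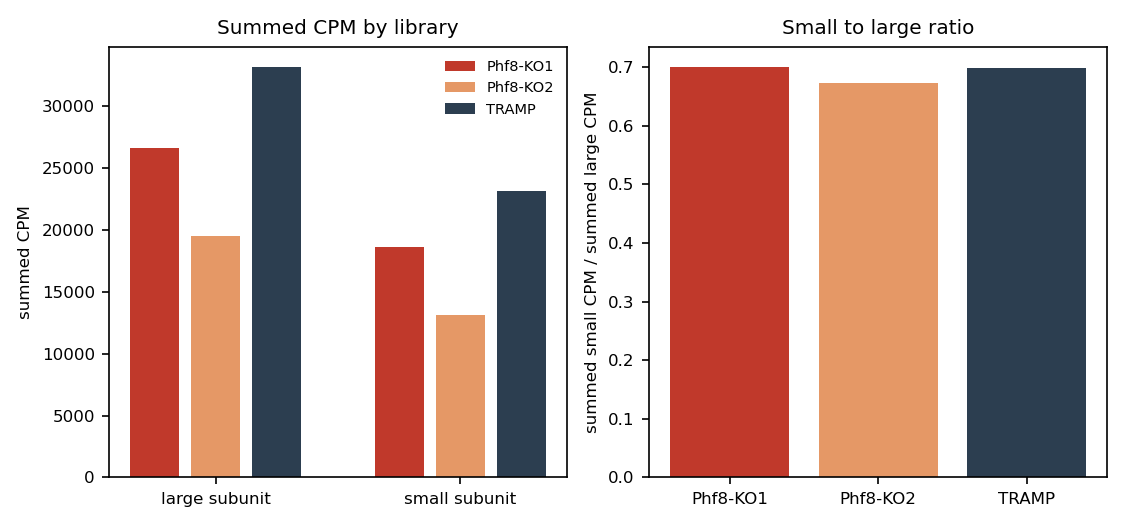
Left, summed CPM of large and small subunit genes in Phf8-KO1, Phf8-KO2 and TRAMP, 1 bar per library. Right, the ratio of the small to the large sum, 0.699, 0.673 and 0.699, with axes starting at 0 and no error bars because each bar is 1 library.

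Gene by gene the same direction was common. Of the 79 tested genes, 60 (75.9%) had lower CPM than TRAMP in both Phf8-KO pools, against 42.8% of all 18216 genes tested, and 10 (12.7%) had higher CPM in both, against 40.8%. The median log2 fold change was -0.54 over the 79 genes and 0.01 over all genes. Without Phf8-KO1 the median log2 ratio of the other pool to TRAMP was -0.81, and without Phf8-KO2 it was -0.33, neither from a new fit. With offsets for GC and length in the fit the median log2 fold change was -0.07, against 0.11 over all genes. In the fit without offsets it was -0.61 over 48 large and -0.48 over 31 small subunit genes, a difference of -0.13 between the medians. Lower in both pools were 38 of 48 large and 22 of 31 small subunit genes. At an adjusted p under 0.05 and over 2-fold in the quasi-likelihood test of edgeR, 0 of the 79 were called, against 7 of all genes (0.0384%). At an unadjusted p under 0.05, 9 genes were lower (11.4%, against 12.2% of all genes) and 0 were higher (against 14.9%). The 9 were Rpl3l (which passed the filter on low counts only through TRAMP), Rps7, Rps18, Rpl11, Rpl37, Rpl23, Rpl17, Rpl9 and Rps12. Named pseudogenes held 95.0% of the counts of gene and pseudogenes together for Rpl17, 83.4% for Rps12 and 52.6% for Rpl9. The levels of these genes are therefore uncertain. DESeq2, at the same thresholds, called 4 of 78 genes lower (5.13%, against 4.59% of all genes), namely Rpl3l, Rps18, Rps4x and Rps7, and 0 higher (against 9.42%). limma-voom called 0. Without a filter on low counts edgeR called 1, Rpl3l (1.23% of 81, against 3.32% of all genes lower). The shares called were near or below the background, except for the share lower in both pools, which lay above it.

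Lists of related genes were described the same way. Beside their counts stand the shares over all genes tested, 42.8% lower and 40.8% higher in both pools. The pseudogene symbols, which may hold reads of the genes themselves, had a median log2 fold change of -0.46 over 111 tested, with 82 lower and 8 higher in both pools. Genes of the mitochondrial ribosome had a median of -0.16 over 77, with 40 lower and 28 higher. Translation factors known for TOP mRNAs had a median of 0.02 over 19, with 9 lower and 8 higher. Initiation factors had a median of -0.31 over 22 (13 lower, 8 higher), subunits and factors of RNA polymerase I, which makes ribosomal RNA, of -0.07 over 13 (5 lower, 6 higher), and ribosome assembly factors of -0.36 over 57 (41 lower, 14 higher). Regulators of ribosomal protein synthesis had a median of 0.77 over 16, with 3 lower and 11 higher. This list mixes activators, such as Myc and Mtor, with inhibitors, such as Tsc1 and Tsc2, so its median gives no direction of growth control. With an offset for GC in the fit (an alternative chosen after seeing the data), the median was 0.13 over all genes. It was 0.02 for initiation factors and 0.03 for ribosome assembly factors, -0.45 for the pseudogene symbols and 0.60 for the regulators. With offsets for GC and length it was 0.11 over all genes and 0.004 for the pseudogene symbols. These offsets gave -0.02 for initiation factors, -0.03 for assembly factors, 0.24 for the mitochondrial ribosome and 0.42 for the regulators. The regulators had a median log2 ratio to TRAMP of 0.40 in Phf8-KO1 alone and 0.83 in Phf8-KO2 alone. No gene of these lists passed edgeR's test with the fold threshold. These lists were described by counts only, and differences between them were not tested.

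Single genes of these lists went different ways. Eef1a1, the elongation factor that brings aminoacyl-tRNA, had 11246 and 8797 CPM in the Phf8-KO pools, against 14111 CPM in TRAMP, whereas Eef2, the translocase, had 3037 and 2639 CPM, against 1830 CPM. Eif3e had 285 and 215 CPM, against 459 CPM in TRAMP, and Eif3f, of the same complex, 348 and 286 CPM, against 142 CPM. Members of this complex thus lay on both sides of TRAMP. Eif3m had 175 and 141 CPM, against 344 CPM, and Eif6, which keeps free large subunits apart from small ones, 76.2 and 70.0 CPM, against 38.6 CPM. Assembly factors also lay on both sides. Of these, Gar1, of the box H/ACA particles, had 40.6 and 37.4 CPM, against 16.7 CPM in TRAMP, and Wdr43 58.9 and 57.4 CPM, against 103 CPM. Among RNA polymerase I genes, Polr1a, the largest subunit, had 38.2 and 36.6 CPM, against 19.9 CPM, and Taf1b 30.8 and 25.7 CPM, against 49.9 CPM. Polr1a was thus above TRAMP in both Phf8-KO pools and Taf1b below it. Among mitochondrial genes, Mrps18a had 48.5 and 49.4 CPM, against 20.9 CPM, and Mrps12 50.4 and 48.5 CPM, against 26.5 CPM. Trp53, which encodes p53, had 72.8 and 72.7 CPM, against 29.4 CPM, and Akt1 189 and 208 CPM, against 83.6 CPM. Apart from Eef1a1 and Eef2, singled out after their values were seen, these genes are those of smallest p in their lists. A small gap between the Phf8-KO pools is part of what gives a small p in this fit, so their likeness to each other is no result. The adjusted p in edgeR was 0.10 to 0.16, and 0.65 for Eef1a1 and 0.39 for Eef2. Of the 4 core genes outside the name rule, 3 were lower in both Phf8-KO pools and 1 had TRAMP between them. Rps3a1 had 1202 and 924 CPM, against 1674 CPM, and Rpl36al 338 and 276 CPM, against 560 CPM. Of the pseudogene symbols, Rps12-ps3 had 100.2 and 71.3 CPM, against 184 CPM in TRAMP, and Rps18-ps3 34.6 and 21.5 CPM, against 63.3 CPM (adjusted p = 0.13 and 0.15, edgeR).

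**Figure D4:**
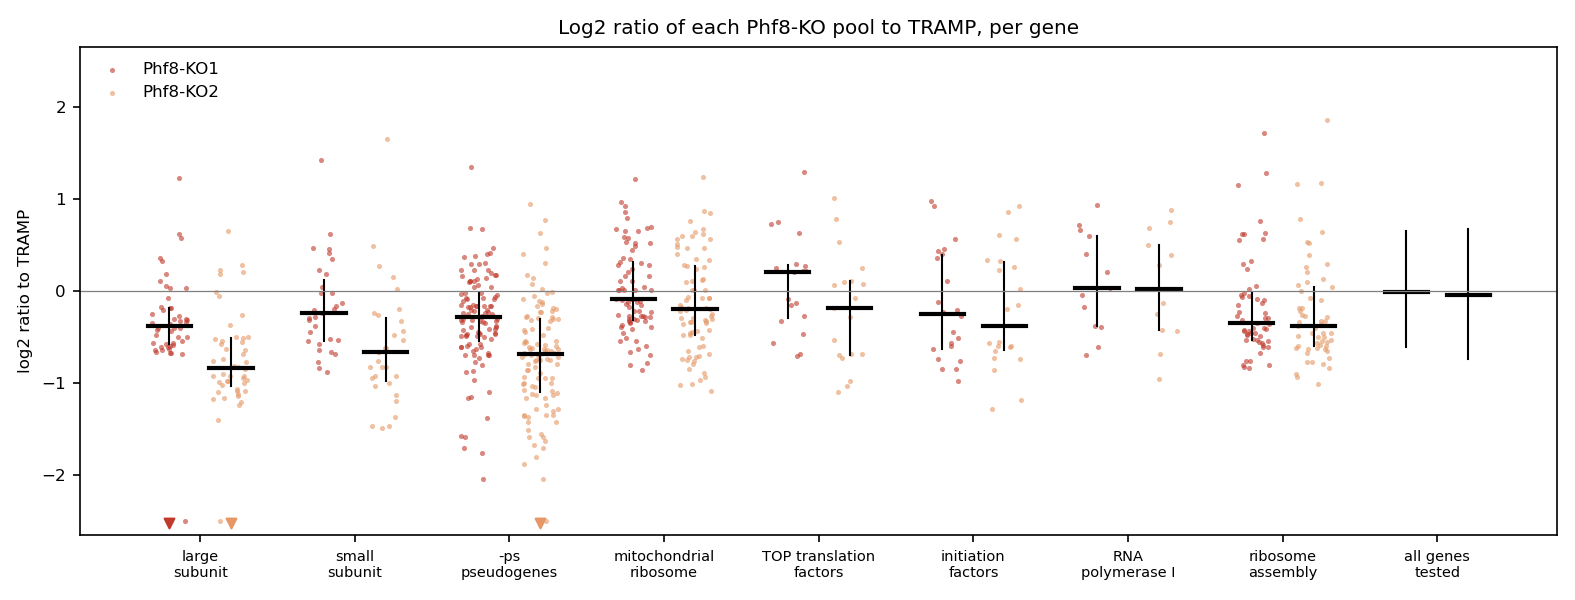
Log2 ratio of Phf8-KO1 and of Phf8-KO2 to TRAMP for each tested gene (points), with the median (thick bar) and quartiles (thin line), by gene list. Triangles at the lower edge stand for genes below the axis (Rpl3l in both pools and 1 pseudogene), and all genes tested are shown by median and quartiles only. The medians of the large subunit are -0.38 and -0.84, and those of all genes -0.01 and -0.04.

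The pools of the same genotype were themselves apart. Of the 79 genes, 76 (96.2%) had higher CPM in Phf8-KO1 than in Phf8-KO2, against 50.1% of all genes, and the median log2 ratio between the pools was 0.44, with quartiles of 0.33 and 0.56. In 59 genes (74.7%, against 24.1% of all genes) Phf8-KO2 was lowest, Phf8-KO1 between and TRAMP highest. The gap between the pools was widest in Rpl10 (log2 ratio 0.73), followed by Rps18 (0.70). Pseudogene symbols showed a like gap (median 0.41) and mitochondrial ribosomal genes a smaller one (0.12). Several marker lists also had a positive median log2 ratio of Phf8-KO1 to Phf8-KO2. It was 3.75 for smooth muscle, 1.24 for macrophage, 1.19 for fibroblast, 1.08 for B cell and plasma cell, 0.86 for T cell, 0.55 for neuroendocrine and 0.51 for erythroid markers. Other lists had 0.12 for proliferation, 0.05 for skeletal muscle, -0.08 for luminal prostate, -0.53 for seminal vesicle and -0.73 for endothelial markers. Single markers could differ from their list, such as Pdgfra (28.9 and 86.8 CPM) and Foxa2 (0.30 and 0.63 CPM). The adipocyte markers had a median ratio of 2.13, although their sum was lower in Phf8-KO1. The part of these lists in the gap was not tested. Set against TRAMP, which both share as the control, Phf8-KO1 had a median log2 ratio of -0.33 and Phf8-KO2 one of -0.81.

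The lowest fold change belonged to Rpl3l, the paralog that takes the place of Rpl3 in striated muscle. It had 0 and 0 counts in the Phf8-KO pools, against 168 counts (5.81 CPM) in TRAMP, at least 116-fold lower against a floor of 3 counts over both Phf8-KO pools. It passed the filter on low counts only through TRAMP, so it had to differ, and its p-values and its place among the called genes are descriptions. Its adjusted p was 0.10 in edgeR's quasi-likelihood test, 0.0014 without the filter and 8.89e-06 in DESeq2. Rpl3 itself, which lies near the peptidyl transferase center, had 610 and 439 CPM, against 943 CPM in TRAMP. All 12 skeletal muscle markers were lower in both Phf8-KO pools. Tnnt3 had 0.38 and 0.48 CPM, against 378 CPM in TRAMP, and Myh1 0.038 and 0.030 CPM, against 144 CPM. Acta1 had 63.4 and 2.504 CPM, against 138 CPM. The median log2 fold change of the 12 markers was -7.91, and the part of muscle RNA in the value of Rpl3l was not tested.

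More than 2-fold lower on the fitted scale were 3 further genes, each of the small subunit, and none of them passed edgeR's test. Rps4x, X-linked and an RNA-binding protein of the 40S body, had 1354 and 889 CPM in the Phf8-KO pools (1122 ± 329, SD, n = 2), against 2484 CPM in TRAMP, with a log2 fold change of -1.15 (SE 0.42, adjusted p = 0.19). Rps7, which can bind Mdm2, had 423 and 273 CPM (348 ± 106), against 755 CPM, a log2 fold change of -1.12 (SE 0.36, adjusted p = 0.16). Rps18, of the 40S head, had 292 and 180 CPM (236 ± 79.2), against 499 CPM, a log2 fold change of -1.08 (SE 0.36, adjusted p = 0.17). In all 3 the Phf8-KO pools lay below TRAMP and apart from each other, and the calls were made by DESeq2 only (adjusted p of 0.012, 0.018 and 0.033). Their log2 ratios to TRAMP were -0.88, -0.84 and -0.77 in Phf8-KO1 and -1.48, -1.47 and -1.47 in Phf8-KO2. With offsets for GC and length their log2 fold changes were -0.51, -0.86 and -0.82, each under 2-fold. Rpl10, an X-linked gene whose product joins late in 60S maturation, had 722 and 437 CPM, against 1153 CPM, a log2 fold change of -0.99 (adjusted p = 0.23).

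At the other end Rplp2, the partner of Rplp1 in the stalk, had 440 and 297 CPM in the Phf8-KO pools (369 ± 101), against 188 CPM in TRAMP. Its log2 fold change was 0.97 (SE 0.34, adjusted p = 0.19 in edgeR and 0.035 in DESeq2, under the 2-fold threshold). Both Phf8-KO pools lay above TRAMP. Of the other stalk proteins, Rplp1 had 1785 and 1198 CPM, against 1740 CPM, and Rplp0 3037 and 2061 CPM, against 3899 CPM. Rplp1 had TRAMP between the Phf8-KO pools and Rplp0 had TRAMP above both. Rplp2 shared no window with an annotated pseudogene, but 39.1% of its windows occurred in other annotated genes. The next genes also had TRAMP lowest. Rps29 had 6.75 and 6.12 CPM, against 4.36 CPM in TRAMP, Rpl28 10.3 and 8.12 CPM, against 6.68 CPM, and Rpl14 182 and 143 CPM, against 122 CPM. Rps2, near the mRNA entry site, had 618 and 497 CPM, against 447 CPM. Their log2 fold changes were 0.32 to 0.56, with adjusted p of 0.34 to 0.51. Named pseudogenes held 82.5% of the counts of gene and pseudogenes together for Rpl28 and 42.9% for Rpl14, so these levels are uncertain. Rps28 had the highest fitted value on 8 and 12 counts, against 2 counts in TRAMP, with an adjusted p of 0.37 in edgeR. The ratio was 4.83, with an exact 95% counting interval of 1.17 to 42.7. Rps28 passed the filter on low counts only through Phf8-KO2.

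Among the genes with roles beyond the ribosome, those that restrain Mdm2 had unlike values. Rpl11 had 280 and 201 CPM in the Phf8-KO pools, against 444 CPM in TRAMP (log2 fold change -0.88, SE 0.29, adjusted p = 0.17), while Rpl5, its partner in the 5S particle, had 150 and 111 CPM, against 158 CPM (-0.28, SE 0.26, adjusted p = 0.53). Rps6, the substrate of the S6 kinases, had 63.6 and 56.6 CPM, against 64.8 CPM, and Rps19, often mutated in human Diamond-Blackfan anemia, 578 and 404 CPM, against 507 CPM. In Rps19 TRAMP lay between the Phf8-KO pools. Rpsa, also known as the laminin receptor, had 1472 and 1037 CPM, against 1835 CPM, and Rps27a, made as a fusion with ubiquitin, 12.8 and 10.2 CPM, against 17.4 CPM. Rpl38, which in mice is needed for translation of Hox mRNAs, had 54.7 and 35.6 CPM, against 72.2 CPM. Named pseudogenes held 77.5% of the counts of gene and pseudogenes together for Rpl38, 34.8% for Rps6 and 28.8% for Rps27a. The levels of these genes are therefore uncertain. Rpl10a had 8.37 and 9.44 CPM, against 8.16 CPM, and is subject to the limit on its pseudogenes given above. The counterparts of the restricted paralogs not yet named had lower CPM in both pools too, with Rpl39 at 322 and 209 CPM, against 483 CPM.

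The genes lie on 19 chromosomes, and without offsets those of chromosome 7 had the highest median. The 14 genes there, among them Rps3, Rps13, Rps19, Rpl28 and Rplp2, had a median log2 fold change of -0.07, with 5 lower and 4 higher in both pools. The 65 tested genes of other chromosomes had a median of -0.61, with 55 lower in both. The 1283 other genes of chromosome 7 had a median of 0.23. The ribosomal protein transcripts of chromosome 7 had a median GC of 53.4%, against 51.8% on the other chromosomes. With offsets for GC and length their median was 0.12, below those of chromosome 4 (0.13, 5 genes) and chromosome 13 (0.40, 1 gene). The 4 genes of chromosome X (Rps4x, Rpl10, Rpl39 and Rpl36a) had a median of -0.93, and the 580 other genes there -0.26. These medians are descriptions without a test, and chromosome 7 was singled out after its values were seen.

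Fold changes in these libraries followed base composition and length across all genes. In bins of transcript GC content the median log2 fold change of the other genes was -0.55 up to 40%, -0.41 from 40 to 45%, -0.17 from 45 to 50%, 0.19 from 50 to 55%, 0.62 from 55 to 60% and 0.97 above. The ribosomal protein genes had a median GC of 51.9%, and their own medians were -0.35 from 40 to 45% (3 genes), -0.70 from 45 to 50% (24 genes), -0.49 from 50 to 55% (35 genes), -0.33 from 55 to 60% (15 genes) and -0.07 above (2 genes). These were lower than the medians of the other genes except from 40 to 45%, where 1 of the 3 genes lay below. Within the set the Spearman correlation of fold change with GC was 0.39 over 79 genes, against 0.40 over 16608 genes with an annotated transcript, points that share the same 3 libraries. Short transcripts had lower values. The median of other genes was -0.44 up to 500 nt, -0.29 from 500 to 1000 nt and 0.23 above 5000 nt, and the ribosomal protein transcripts had a median of 729 nt. The medians of the ribosomal protein genes were close to each other, at -0.58 up to 500 nt (19 genes), -0.54 from 500 to 1000 nt (42 genes), -0.57 from 1000 to 1500 nt (12 genes) and -0.53 from 1500 to 2000 nt (4 genes). The Spearman correlation of fold change with length was -0.01 within the set, against 0.16 over all genes with a transcript. With an offset for GC in the fit the median of the 79 genes was -0.49 and that of all genes 0.13, and with offsets for GC and length it was -0.07, against 0.11. With both offsets the large subunit had a median of -0.11 and the small subunit one of 0.02. The gap between the set and all genes was thus narrower with both offsets than with that for GC alone. RNA quality was not given for these libraries, and its part was not tested.

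**Figure D5:**
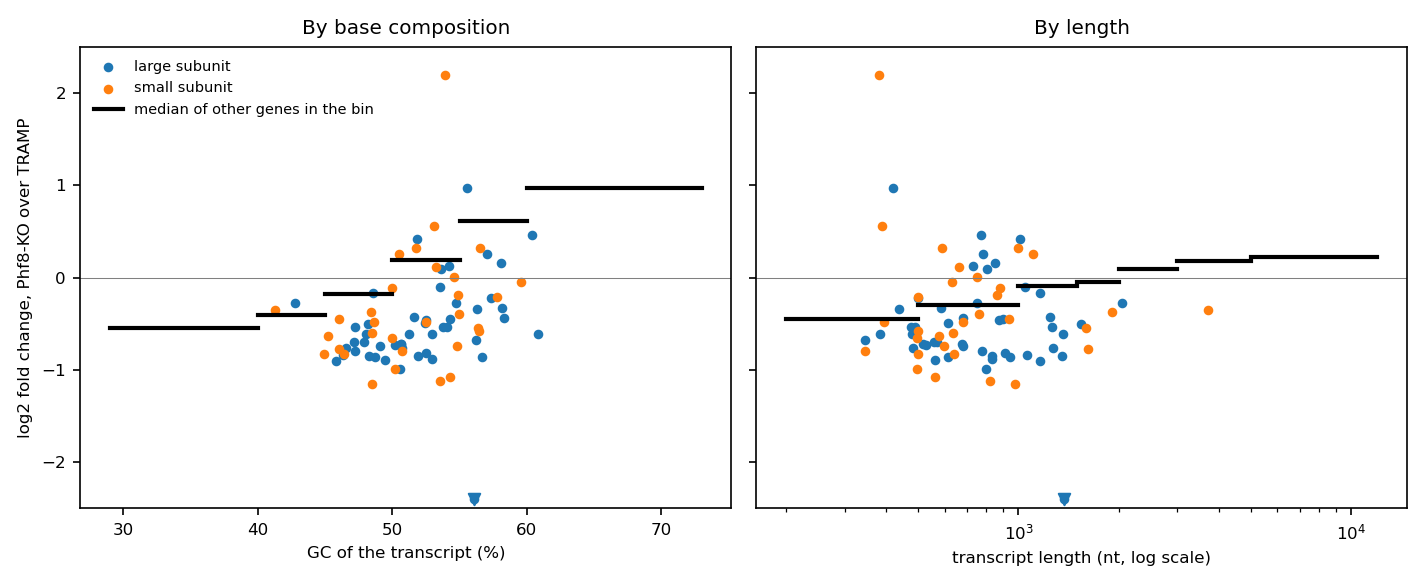
Log2 fold change, Phf8-KO over TRAMP, of each tested ribosomal protein gene against GC content and length of its transcript (log axis for length), with black bars for the median of the other genes in each bin. The triangle marks Rpl3l, which lies below the axis. Of the 79 genes, 69 lie below the bar of their GC bin and 58 below that of their length bin.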

How the data were processed

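RNA was sequenced from 2 pools labeled Phf8-KO and 1 TRAMP pool. The deposited values are raw counts per gene, which the authors made with HTSeq from quality-filtered reads aligned by HISAT2 (genome build GRCm38). Tool versions, strand setting and the handling of reads with several matches are not given in the sources used here, so reads of overlapping genes and of near-identical copies may be shared or lost.

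Counts were tested in R 4.3.3 with edgeR 4.0.16 (TMM scaling, filterByExpr by group, quasi-likelihood test, Benjamini-Hochberg adjustment over 18216 genes, called at adjusted p under 0.05 and over 2-fold). With 1 residual degree of freedom the spread is that between Phf8-KO1 and Phf8-KO2. The SE is the size of the log2 fold change divided by the square root of F. Log2 ratios of single pools used a prior count of 2. DESeq2 1.42.0 and limma 3.58.1 were alternatives, beside other scalings and filters. Where 1 Phf8-KO pool was omitted, the log2 ratio of the other pool to TRAMP was taken, without a new fit. TMM factors were 0.997, 1.04 and 0.965 for Phf8-KO1, Phf8-KO2 and TRAMP. Counting intervals (95%, exact) and floors of 3 counts cover counting error only.

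Length, GC and shared windows come from GENCODE M21, using 1 transcript per gene (protein coding, then principal, then shortest), with which 83 members and 16608 tested genes matched. The sequence windows and coordinates come from RefSeq, GRCm38.p6. Offsets for GC and length, and sums with pseudogenes, were added after seeing the data. The members, lists and tests were chosen with earlier results of these data known. Named genes are those called, the 6 largest fold changes each way, the 6 highest and 6 lowest levels per kb, the 4 widest gaps between the Phf8-KO pools, the restricted paralogs with their counterparts, a set chosen by role, and 2 genes of smallest p per other list, with a few more singled out after their values were seen. Some genes that this rule names are not reported here.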

Additional observations from a re-analysis of the deposited data

How the results depend on the processing

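No paired analysis was possible with 1 TRAMP library against 2 Phf8-KO libraries, and TRAMP, as 1 library, could not be left out. The setting without mt- genes was not run because no symbol starts with mt-. edgeR called 0 ribosomal protein genes under every scaling, the stricter filter and both offsets, and limma-voom also called 0, against 4 in DESeq2 and 1 without the filter. Over all genes the calls numbered 7, against 2280 in DESeq2, 2286 without the filter, 21 with the GC offset, 20 by library size only, 0 with a mean CPM of at least 1 and 0 in limma-voom. The offsets for GC and length and the sums with pseudogenes were chosen after seeing the data. With the GC and length offset the median log2 fold change was -0.067 for the 79 genes, -0.11 for the large and 0.024 for the small subunit, and 47 genes were negative, against 65. The difference of subunit medians, -0.13, was -0.18 with the GC offset. For omission of Phf8-KO replicate 1 or replicate 2, the log2 ratio of the other pool to TRAMP was taken, without a new fit. The difference of subunit medians then ranged from -0.17 to -0.15 and the median of the 79 genes from -0.81 to -0.33. Rplp1 ranged from -0.54 to 0.038 and Rps19 from -0.33 to 0.19. Upper quartile scaling moved the median of all genes to -0.14, with 64 members lower in both pools, against 60, and Rpl10a at -0.025. By library size only, 58 were lower and Rps19 was at 0.026. The sign was also opposite with the GC offset in Rpl10a (-0.059), Rpl28 (-0.24), Rpl5 (0.29), Rps2 (-0.091) and Rps6 (0.069), and with the GC and length offset in Rpl5 (0.40), Rps27a (0.16), Rps27l (0.20) and Rps6 (0.46). The cause of these shifts was not tested. Of the 29 named members tested, 20 kept their sign in every alternative run.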
